A study of Canis lupus familiaris with 22 samples.

Results

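The comparison described here set the blood transcriptome of 7 dogs with canine atopic dermatitis (cAD), sampled after 6 months of allergen-specific immunotherapy (ASIT), against that of 8 healthy dogs (6 months vs. ctrl), and asked which functions still differed from healthy blood after therapy. These 15 arrays belong to a series of 22, and the other 7 arrays hold blood drawn from the same atopic dogs before ASIT. Dog numbers after therapy follow the source and health condition labels, since the sample titles name patient 1 for all 7. A probe was kept when it was well above background in both dye channels on all 22 arrays, which 19990 of the 43603 probes were, and 19944 of those had a usable value on every array and were tested. They carried 8062 gene names, and a gene was represented by its brightest probe.

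Each array carried the Cy5-labeled RNA of a single dog beside Cy3-labeled RNA from a common pool of 13 other healthy dogs. Every value below is the log2 ratio of Cy5 to Cy3, so that 0 is the level of the pool, and every difference is the mean of the 6 months arrays minus the mean of the ctrl arrays on that log2 scale. The atopic dogs had received injections under the skin of allergen extracts composed for each dog, and the healthy dogs had received none. Both groups were grown pet dogs of several breeds and both sexes with no engineered allele, and the atopic group held a larger share of females. Differences of sex, breed and age between the groups cannot be told apart from the disease and its therapy. The blood was collected into tubes that stabilize RNA. The study names the RNA as that of peripheral blood nuclear cells, but describes no step that removes a cell type. Fewer cells of a type and less RNA per cell cannot be told apart in any result below.

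Atopic dermatitis is an allergic skin disease in which IgE against environmental allergens arms mast cells and basophils, and in which type 2 T helper cells secrete IL-4, IL-13 and IL-31, the cytokines of IgE switching and itch. Immunotherapy exposes the animal to rising doses of its allergens with the aim of turning this response toward tolerance. Blood RNA shows the disease only through circulating cells: neutrophils with their granule proteins, monocytes, lymphocytes, eosinophils and basophils, and young red cells and platelets that still hold RNA.

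The defining markers of those cells were present. All 7 neutrophil, 7 monocyte and 8 T cell markers on the array passed the filter, as did 4 of 7 for B cells, 5 of 6 for cytotoxic cells, 4 of 6 for eosinophils and basophils, 5 of 6 for platelets and 7 of 7 for red cell precursors. Of cells that do not circulate, 2 of 4 keratinocyte markers, 1 of 3 fibroblast markers and 0 of 3 hepatocyte markers passed. The RNA is therefore described as whole blood, as the sample labels have it, with erythroid RNA included.

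The ctrl arrays lay on 2 slides scanned on 1 day and the 6 months arrays on 3 other slides scanned on 3 other days, with 0 slides shared, so slide, scan day and group cannot be told apart. The 4 6 months arrays of slide 6 were also read with another version of the array design file than all ctrl arrays. The share of probes well above background in Cy5 ran from 83.7% to 92.2% in ctrl (median 87.8%) and from 57.1% to 81.6% in 6 months (median 61.6%), with no overlap. The Cy3 channel held the same pool on every array, yet taken alone after quantile normalization it differed between the 2 groups of arrays at 7634 probes, 38.3% of those tested, with limma at an adjusted p under 0.05, and at 37.8% of genes. It differed at 0 probes after median scaling (3871 at an unadjusted p under 0.05). The Cy5 channel alone differed at 338 probes (1.69%) after quantile normalization, and at 0 after median scaling (4746 at an unadjusted p under 0.05). Between the 2 slides of ctrl arrays the ratio differed at 0 probes (limma, adjusted p under 0.05), and 1109 probes (5.56%) had an unadjusted p under 0.05. Over the tested probes the correlation of log ratios between arrays went down to -0.404 within ctrl and to -0.512 within 6 months, and over all probes no pair went below -0.22.

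No transcript could be called different. In limma over all 22 arrays with the 3 groups in one fit, 0 of 19944 probes passed an adjusted p of 0.05 (0%), and the smallest adjusted p was 0.589. At an unadjusted p under 0.05 there were 1577 probes, 7.91% of those tested, where 997.2 would lie below that threshold if the p-values were uniform. Of these, 754 (3.78%) had a higher and 823 (4.13%) a lower mean in 6 months, beside 42.4% of all probes with a higher and 57.6% with a lower mean, a split that became 264 and 592 after normexp background correction with loess and 898 and 608 when every array was centered on its median. Among genes, 662 (8.21%) had an unadjusted p under 0.05, 322 higher (3.99%) and 340 lower (4.22%). The median difference over all genes was -0.029, and 55.1% of genes had a lower mean in 6 months. The plot of all probes shows both arms of this spread. Since 0 genes passed, the genes below are described by their values and their groups by counts at the unadjusted threshold.

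**Figure D1:**
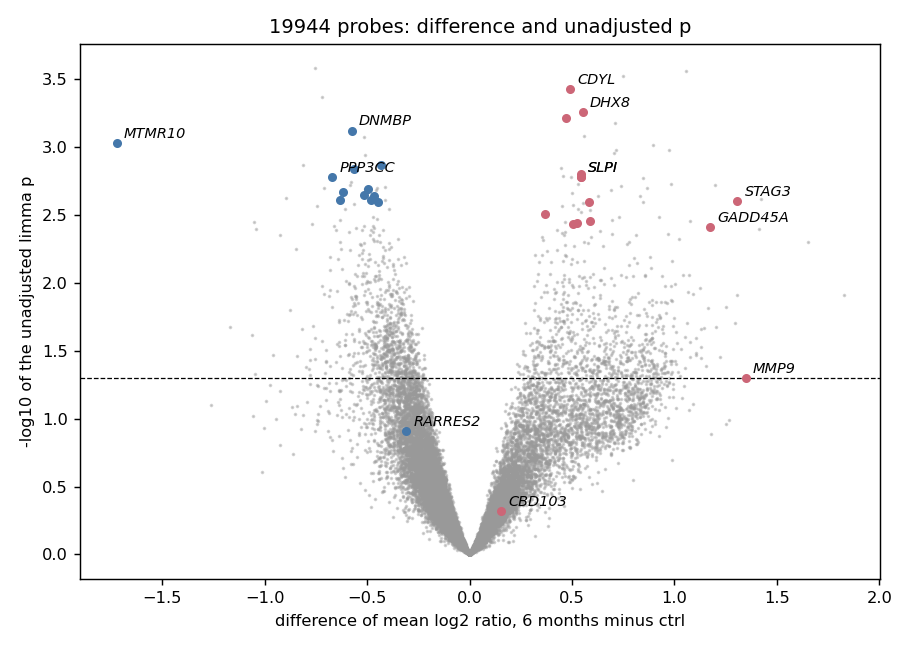
Each gray point is one of 19944 probes, with the difference of mean log2 ratio (6 months minus ctrl) on the x axis and -log10 of the unadjusted limma p on the y axis, and the dashed line marks the unadjusted threshold. Colored points are the named genes, red for a higher and blue for a lower mean in 6 months, where SLPI and GADD45A lie above the line at 0.54 and 1.17, MTMR10 at -1.72, while RARRES2 and CBD103 lie below it, each gene drawn at its brightest probe.

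Single arrays carried much of these counts. Without the ctrl dog 1 array 2561 probes had an unadjusted p under 0.05 and without the 6 months dog 4 array 3408, whereas without ctrl dog 2 there were 942, without 6 months dog 6 there were 1050 and without 6 months dog 7 there were 911. With slide as a random block the count was 757 and with scan day 384.

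Probe sequences are shown for 5 genes on which the description of neutrophil, antigen-presentation and T cell functions turns. Each is a 60-base oligonucleotide printed 5′ to 3′ as the scanner files list it, in lower case throughout, with positions in CanFam3.1. No gene annotation of that build was used here, so exon and untranslated parts are not assigned. SLPI lies on the reverse strand at chr24:32566946-32567491, a stretch of 546 bases that is longer than the probe, and this is the dimmer of its 2 tested probes. LCN2 lies at chr9:55329109-55329168, PSMB8 at chr12:2419692-2419751, RFX5 at chr17:60395335-60395394 and GATA3 at chr2:28070161-28070220, all on the reverse strand.
SLPI: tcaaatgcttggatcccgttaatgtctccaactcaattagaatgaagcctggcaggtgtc
LCN2: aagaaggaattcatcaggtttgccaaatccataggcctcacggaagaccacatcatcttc
PSMB8: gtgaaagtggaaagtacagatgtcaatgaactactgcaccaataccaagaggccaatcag
RFX5: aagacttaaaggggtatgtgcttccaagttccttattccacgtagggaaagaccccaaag
GATA3: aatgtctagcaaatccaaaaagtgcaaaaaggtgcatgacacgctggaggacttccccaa
The GC content of the SLPI, LCN2, RFX5 and GATA3 probes is 45% each and that of the PSMB8 probe 43.3%.

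Neutrophil granule proteins, the antimicrobial and proteolytic load of the most numerous white cell, had mostly higher means after ASIT. Of 23 genes on the array 18 were tested, 11 had a higher mean and 7 a lower one, 3 higher and 1 lower with an unadjusted p under 0.05 (22.2%, beside 8.21% of all genes), and their median difference was 0.25, beside -0.029 over all genes. After normexp and loess 0 were higher and 1 lower at that threshold and the median was 0.075. SLPI, the secretory leukocyte peptidase inhibitor that blocks neutrophil elastase, was measured at -0.091 to 0.54 in ctrl (median 0.23) and at -0.0097 to 1.13 in 6 months (median 0.88). Dog 5 was the single 6 months array inside the ctrl range, and the 6 others lay above every ctrl array, dog 1 by less than 0.01. The difference at this probe was 0.54 ± 0.15 (SE), 1.46-fold, with an exact permutation p of 0.00932 and a limma adjusted p of 0.589. The second SLPI probe, the one printed above, gave a difference of 1.05 ± 0.25.

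The SLPI values depend on the channel. In Cy5 alone the brighter probe had a difference of -0.057 and the dimmer one 0.49, and in Cy3 alone -0.17 and 0.12, so the brighter probe had a higher mean in neither channel and the dimmer one had a higher mean in both. In the same atopic dogs before ASIT, which share the ctrl arrays, the brighter probe was 0.53 above ctrl.

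LCN2, the iron-siderophore-binding protein of specific granules, ranged from -0.75 to 0.53 in ctrl (median -0.094) and from -0.67 to 2.09 in 6 months (median 0.88). CAMP, the cathelicidin antimicrobial peptide, ranged from -0.56 to 0.67 in ctrl (median -0.45) and from -0.49 to 2.53 in 6 months (median 0.52). MMP9, the gelatinase of tertiary granules, ranged from -0.27 to 1.40 in ctrl (median 0.57) and from 0.059 to 4.62 in 6 months (median 1.90). For all 3 genes the ranges overlapped, and the highest arrays came from different dogs: dog 3 for LCN2 and MMP9, and dog 2 for CAMP. The differences were 0.91 ± 0.43 for LCN2, 0.89 ± 0.43 for CAMP and 1.35 ± 0.65 for MMP9, the last a 2.55-fold higher mean with an unadjusted limma p of 0.0504. CYBB, the membrane subunit of the NADPH oxidase that makes the oxidative burst, had a lower mean at -0.46 ± 0.21. MMP8, the neutrophil collagenase, was the lowest member at -0.95 ± 0.55, with an unadjusted p not under 0.05. In Cy5 alone the median difference of the granule list was 0.028, and without the ctrl dog 1 array the median in the ratio was 0.16.

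Neutrophil identity genes lay closer to ctrl. The 7 neutrophil markers had a median difference of 0.083, with CSF3R, the G-CSF receptor, at 0.083 (-0.12 at its dimmer probe), CXCR2, the IL-8 receptor, at 0.0028, and S100A8 and S100A9, the calprotectin subunits, at 0.086 and 0.068. Of 16 neutrophil surface receptor and IL-8 genes 0 had an unadjusted p under 0.05, and CXCR4, the receptor that holds neutrophils in the marrow, had the lowest p with a difference of 0.43 ± 0.22. Of 9 S100 proteins 0 had a higher and 2 a lower mean at that threshold (22.2%, beside 8.21% of all genes), S100A6 at -0.40 and S100A13 at -0.50, and the median of the list was 0.012. That median changed sign to -0.13 in Cy5 alone and to -0.16 without the ctrl arrays of slide 1.

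**Figure D2:**
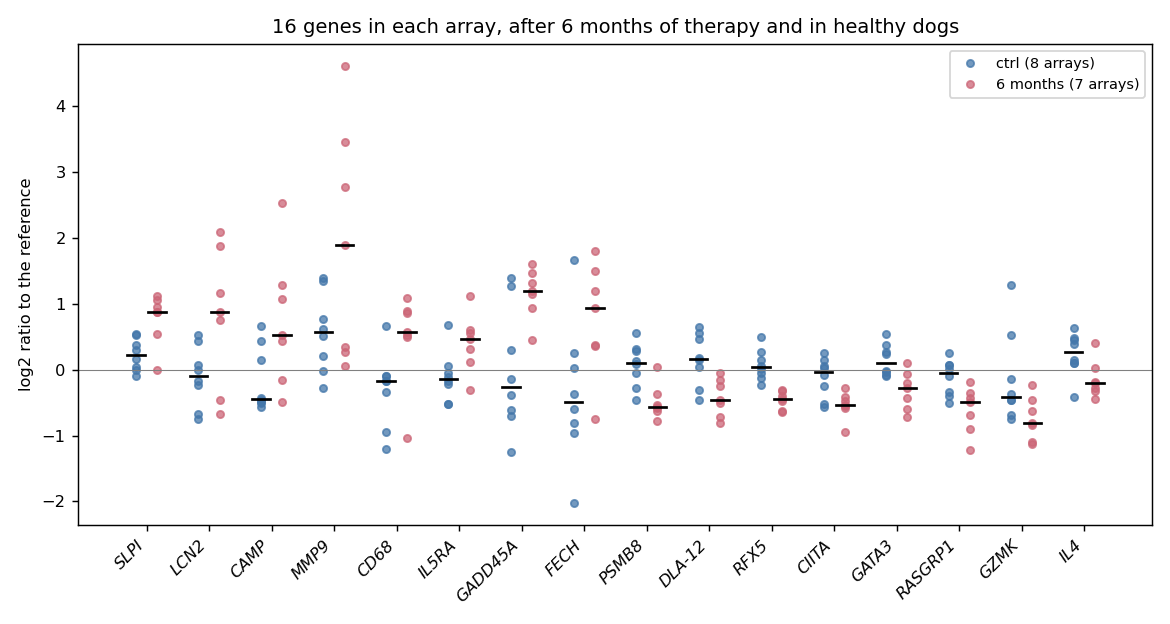
Each point is the log2 ratio to the reference pool (y axis) of one gene (x axis) in one array, blue for the 8 ctrl and red for the 7 6 months arrays, and black bars are medians. SLPI, LCN2, CAMP, MMP9 and GADD45A have higher medians in 6 months and PSMB8, RFX5 and GATA3 lower ones; of the genes drawn only RFX5 has groups that do not overlap.

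Monocyte genes were divided. Of 22 tested 10 had a higher and 12 a lower mean, with a median difference of -0.012 that was -0.11 without the 6 months dog 4 array, 0.039 without dog 7 and 0.052 after normexp and loess. AIF1, a calcium-binding protein of macrophages, had a difference of 0.46 ± 0.18 and CD68, a lysosomal glycoprotein of macrophages, 0.78 ± 0.35, the 2 members with an unadjusted p under 0.05 (9.09%, near the 8.21% of all genes). CD14, the lipopolysaccharide co-receptor, had a difference of -0.0040. In CD68 the 6 months dog 4 array lay at -1.03 and the next at 0.50. Of 25 genes of the Toll-like receptor pathway 1 was higher and 3 were lower at the unadjusted threshold (16%, beside 8.21% of all genes): TOLLIP, an inhibitor of the pathway, at 0.39, and TRAF3 and IRF3, which link it to interferon production, at -0.40 (0.32 at the dimmer TRAF3 probe) and -0.28, with LY86, a partner of the receptor homolog RP105, at -0.52. The median of that list was 0.027, and it was -0.10 without the ctrl arrays of slide 2.

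Interferon-stimulated genes had lower means after ASIT, but one healthy dog set much of that difference. These genes are switched on together by type I interferon. Of 35 tested, 27 had a lower mean, 8 were lower and 0 higher with an unadjusted p under 0.05 (22.9% of the list, beside 8.21% of all genes), and the median difference was -0.40. The mean of the list in each array was -0.39 to 1.32 in ctrl (median -0.079) and -0.40 to -0.12 in 6 months (median -0.27). The ctrl dog 7 array stood at 1.32 and the next ctrl array at 0.024, and without dog 7 the median difference was -0.10. It was -0.13 without the ctrl arrays of slide 2, which hold dog 7, and also -0.13 in Cy5 alone and after normexp and loess.

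PSMB8, the interferon-induced catalytic subunit of the immunoproteasome, ranged from -0.46 to 0.56 in ctrl (median 0.11) and from -0.78 to 0.046 in 6 months (median -0.57). The ranges overlapped, with a difference of -0.56 ± 0.17 and an exact permutation p of 0.00528 (limma adjusted p 0.589). TRIM22, an antiviral ubiquitin ligase, had a difference of -0.64 ± 0.27, PARP9, an interferon-linked ADP-ribosyltransferase, -0.57 ± 0.22, and IFI35, a cytosolic interferon-induced protein, -0.53 ± 0.21. Without the ctrl dog 7 array IFI35 lay at -0.34. In Cy5 alone PARP9 lay at 0.0028, so its lower ratio was not seen in the dogs' channel. Members without a lower mean included IRF1 at 0.43, OAS1 at 0.43 and ISG15 at 0.29, none with an unadjusted p under 0.05.

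Several genes of class I antigen presentation had lower means after ASIT, though the class as a whole was divided. Of 18 class I and peptide-loading genes 11 had a lower and 7 a higher mean, 5 were lower and 0 higher with an unadjusted p under 0.05 (27.8%, beside 8.21% of all genes), with a median difference of -0.12. DLA-12, a class I heavy chain, had a difference of -0.58 ± 0.19, PSMB10, another immunoproteasome subunit, -0.35 ± 0.13, and ERAP1, the aminopeptidase that trims peptides for class I, -0.53 ± 0.25. DLA genes have close copies in the genome, and a 60-base probe can take up RNA of more than one of them. The 2 dimmer DLA-12 probes gave -0.40 and 0.19. Without the 6 months dog 2 array the median of the class I list was -0.041.

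Of 23 class II genes 19 had a lower mean, 4 were lower and 0 higher at the unadjusted threshold (17.4%, beside 8.21% of all genes), and the median difference was -0.24. RFX5, the DNA-binding subunit of the factor that switches on class II genes, ranged from -0.24 to 0.50 in ctrl (median 0.037) and from -0.65 to -0.30 in 6 months (median -0.44). Every 6 months array lay below every ctrl array. The difference was -0.53 ± 0.17, 69.3% of the ctrl ratio, with an exact permutation p of 0.000311, where the smallest this test can give with 15 arrays is 0.000155, and a limma adjusted p of 0.589.

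CIITA, the class II transactivator, ranged from -0.57 to 0.25 in ctrl (median -0.028) and from -0.95 to -0.29 in 6 months (median -0.53), a difference of -0.42 ± 0.20. CD80, the costimulatory ligand of CD28, had a difference of -0.41 ± 0.17 and DLA-DQA1, a class II alpha chain, -0.53 ± 0.24. Of the other peptide-binding chains DLA-DRA had a difference of -0.24, DLA-DQB1 of -0.38 and the gene listed as HLA-DRB1 of -0.13 (0.021 and -0.43 at its dimmer probes), none with an unadjusted p under 0.05. In Cy5 alone the median of the class II list was -0.14. With the erythroid level of each array as a covariate, chosen after the data were seen, it was -0.079.

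**Figure D3:**
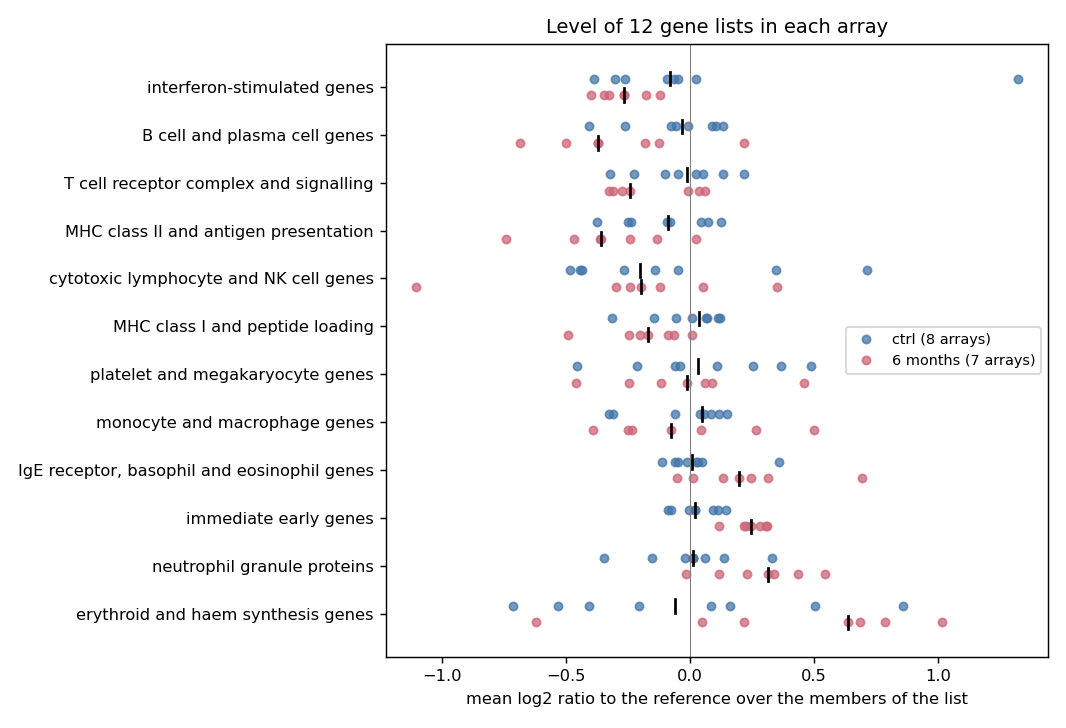
Each point is the mean log2 ratio to the reference pool (x axis) over the tested members of one list (y axis) in one array, blue for the 8 ctrl and red for the 7 6 months arrays, and black bars are medians over arrays. The groups overlap in all 12 lists drawn, the ctrl dog 7 array stands apart at 1.32 for interferon-stimulated genes, and the immediate early genes come nearest to separating, with 0.12 to 0.31 in 6 months and -0.088 to 0.15 in ctrl.

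T cell genes mostly had lower means. Of 33 genes of the T cell receptor complex and its signaling 25 had a lower mean, 7 were lower and 0 higher with an unadjusted p under 0.05 (21.2%, beside 8.21% of all genes), and the median difference was -0.26. GATA3, the master transcription factor of type 2 T helper cells, ranged from -0.089 to 0.54 in ctrl (median 0.11) and from -0.72 to 0.10 in 6 months (median -0.27). The groups overlapped, and the difference was -0.46 ± 0.16 with an exact permutation p of 0.00528 and a limma adjusted p of 0.589. THEMIS, needed for T cell selection in the thymus, had a difference of -0.36 ± 0.13 and RASGRP1, which couples the receptor to Ras, -0.49 ± 0.21. Among the 8 T cell markers 7 had a lower mean, from CD8B at -0.50 and CD8A at -0.35 through CD3G at -0.33 to CD3D at -0.12, and CD4 alone had a higher one at 0.33, none with an unadjusted limma p under 0.05. CD28, the costimulatory receptor, had a difference of 0.91 (unadjusted limma p 0.054) and ZAP70, the kinase that binds the receptor, of 0.71, but their dimmer probes gave -0.41 and -0.40, so these genes have no settled direction. The median of the T cell list was -0.16 without the 6 months dog 2 array, and after normexp and loess it was -0.12 with 4 lower.

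Cytotoxic genes gave no stable direction. Of 18 tested 14 had a lower mean and 2 were lower at the unadjusted threshold (11.1%, beside 8.21% of all genes), with a median of -0.18, and GZMK, a granzyme of memory T cells, and CTSW, a cathepsin of cytotoxic cells, both had a difference of -0.61. Without the ctrl arrays of slide 2 the median was 0.014, without the 6 months arrays of slide 6 it was 0.20, and without the ctrl dog 8 array -0.042. B cell genes had a median of -0.30 over 16 members, of which 12 had a lower mean, and of -0.084 after normexp and loess. At the unadjusted threshold 1 was higher and 1 lower (12.5%, beside 8.21% of all genes). CD38, an ectoenzyme of plasma cells, had a difference of -0.57 ± 0.26 and MS4A1, the CD20 antigen, of -0.75. Of the 4 B cell markers tested 2 had a higher and 2 a lower mean. Without the 6 months dog 4 array the median of the B cell list was -0.17.

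Genes of regulatory T cells and tolerance, which ASIT is meant to engage, were divided evenly. Of 16 tested 8 had a higher and 8 a lower mean, with a median of -0.010. ENTPD1, the ectonucleotidase CD39 that suppresses by making adenosine, had a difference of 0.39 ± 0.17. SMAD2, a signal carrier of TGF-β, had a difference of -0.39 ± 0.16 in the ratio but of 0.23 in Cy5 alone, with 0.71 in Cy3. The median was -0.090 without the ctrl arrays of slide 2. FOXP3, the defining transcription factor of these cells, was not among the 16 tested.

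Allergy effector genes had higher means at a few members. Of 13 IgE receptor, basophil and eosinophil genes 10 had a higher mean, 3 were higher and 0 lower with an unadjusted p under 0.05 (23.1%, beside 8.21% of all genes), and the median difference was 0.13. Without the 6 months dog 7 array the median was 0.23. After normexp and loess 0 were higher or lower at that threshold and the median was 0.10. GPR44, the prostaglandin D2 receptor of type 2 cells and eosinophils, ranged from -1.05 to 0.72 in ctrl (median -0.018) and from -0.93 to 1.46 in 6 months (median 0.94). IL5RA, the IL-5 receptor chain of eosinophils and basophils, ranged from -0.52 to 0.67 in ctrl (median -0.14) and from -0.31 to 1.12 in 6 months (median 0.47). In both genes the groups overlapped, with differences of 0.78 ± 0.35 and 0.52 ± 0.24. The dimmer of the 2 GPR44 probes gave -0.14, so its direction is not settled. BTK, the kinase downstream of the IgE and B cell receptors, had a difference of 0.42 ± 0.20 in the ratio but of -0.12 in Cy5 alone. FCER1A, the IgE-binding chain, had a difference of 0.53 and MS4A2, the receptor's beta chain, of 0.37, and CCR3, the eotaxin receptor, of -0.45, none with an unadjusted p under 0.05.

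The type 2 cytokine axis had as many higher as lower means. The 14 genes of IL-4, IL-13, IL-31 and their receptors had a median of 0.031, which was -0.033 in Cy5 alone, -0.022 after normexp and loess and also -0.022 without the ctrl dog 1 array. IL4 itself ranged from -0.41 to 0.63 in ctrl (median 0.26) and from -0.45 to 0.41 in 6 months (median -0.20), a difference of -0.38 ± 0.18. Before ASIT the same dogs lay 0.51 below the same ctrl arrays for IL4. Leukotriene and prostaglandin genes had a median of 0.13 over 15 members with 0 higher and 1 lower at the unadjusted threshold (6.67%, below the 8.21% of all genes). That member was PLA2G6, a calcium-independent phospholipase A2, at -0.42. The median of the list was 0.023 without the ctrl arrays of slide 2. Chemokines and their receptors had a median of 0.043 over 20 members that turned to -0.14 over the 45 on the array with no filter and to -0.0034 without the ctrl dog 5 array, with CXCR3, the receptor of type 1 T cells, at 0.93 ± 0.45 in the ratio, 0.36 in Cy5 alone and -0.41 in Cy3 alone.

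Immediate early genes, which answer cell stimulation or handling within minutes, had higher means. Of 24 tested 19 had a higher mean, 3 were higher and 0 lower with an unadjusted p under 0.05 (12.5%, beside 8.21% of all genes), and the median was 0.17. GADD45A, a stress-induced growth-arrest gene, ranged from -1.25 to 1.40 in ctrl (median -0.26) and from 0.45 to 1.60 in 6 months (median 1.20). Only the ctrl dog 1 and dog 6 arrays lay within the range of the 6 months arrays. The difference was 1.17 ± 0.37, 2.25-fold, with an exact permutation p of 0.0118 and a limma adjusted p of 0.589. NR4A1, a nuclear receptor induced by T cell receptor signals, had a difference of 0.55 ± 0.22 and FOS, a subunit of AP-1, of 0.72 ± 0.31, and in Cy5 alone all 3 genes kept a higher mean, at 0.87, 0.27 and 0.46. Normexp with loess brought the median of the list to 0.059. Of 27 glucocorticoid receptor and target genes 2 were higher and 0 lower at the unadjusted threshold (7.41%, below the 8.21% of all genes), the co-repressor TLE1 at 0.61 and the mTOR inhibitor DDIT4 at 0.47, and the targets TSC22D3 and FKBP5 were not among them.

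Erythroid genes varied widely among the dogs of both groups. They cover haem synthesis, the red cell membrane and globin handling, and are carried in blood by reticulocytes. Of 37 tested 30 had a higher mean in 6 months, beside 44.9% of all genes. With an unadjusted p under 0.05, 1 was higher and 0 lower (2.7%, below the 8.21% of all genes). The median difference was 0.32, or 0.13 after normexp and loess and 0.19 with the filter on the coefficient of variation. The mean of the list was -0.71 to 0.86 in ctrl (median -0.059) and -0.62 to 1.01 in 6 months (median 0.64). FECH, ferrochelatase, the last enzyme of haem synthesis, had a difference of 1.13 ± 0.46. The 7 erythroid markers all had a higher mean, with TRIM58 at 0.30 and ALAS2, the first enzyme of erythroid haem synthesis, at 0.97, and 0 of the 7 had an unadjusted p under 0.05. Without the 6 months dog 4 array the median of the list was 0.57.

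This erythroid level ran along the main axis of variation. The first principal component of the 15 arrays held 46.3% of the variance, and 31 of 37 erythroid genes pointed to the same side of it. Of 23 class II genes 21 pointed to the other side, as did 20 of 22 monocyte genes, 23 of 25 Toll-like receptor pathway genes and 25 of 33 T cell genes, beside 5160 of all 8062. On the erythroid side lay 3 of 8 ctrl and 5 of 7 6 months arrays. Across the probes the loading on this component had a correlation of 0.445 with the GC content of the probe, a description across probes that are not independent. With the erythroid level as a covariate the medians of the interferon, T cell, immediate early and granule lists were -0.32, -0.24, 0.11 and 0.26, and those of class I and class II genes were -0.014 and -0.079.

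**Figure D4:**
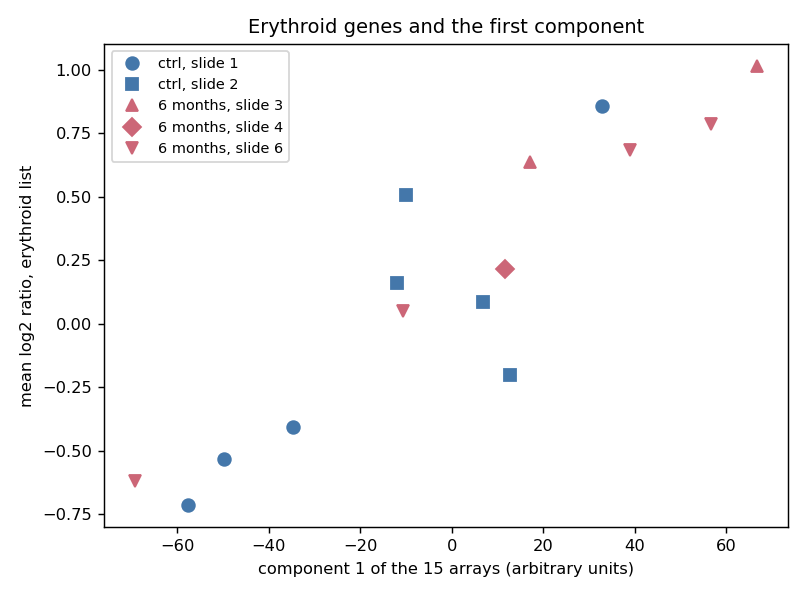
Each point is one array, placed by its score on the first principal component of the 15 arrays (x axis, arbitrary units) and by its mean log2 ratio over 37 erythroid genes (y axis), with color for group and symbol for slide. Ctrl arrays run from -57.7 to 33.0 on the component and 6 months arrays from -69.2 to 66.8, with the 6 months dog 4 array lowest, next to 3 ctrl arrays of slide 1, and 3 other 6 months arrays above every ctrl array.

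No platelet gene passed even the unadjusted threshold: 0 of 30 had a p under 0.05, the median was -0.084 (0.0097 without the 6 months dog 4 array), and TBXA2R, the thromboxane receptor, had the lowest p with a difference of 0.53 ± 0.28. Aminoacyl-tRNA synthetases had 0 of 29 members under the unadjusted threshold with 26 of 29 means lower (beside 55.1% of all genes) and a median of -0.13. The lowest p among them belonged to CARS2 at -0.30 in the ratio and 0.052 in Cy5 alone. Cytosolic ribosomal proteins had 1 of 48 under that threshold (2.08%, below the 8.21% of all genes), RPL35 at 0.58. Their median was 0.054, which was -0.19 in Cy5 alone. Mitochondrial ribosomal proteins had 2 higher and 6 lower of 58 (13.8%, beside 8.21% of all genes) with a median of -0.081 that was -0.013 without the 6 months dog 2 array and -0.0013 after normexp and loess, among them MRPL47 at 0.58, MRPL14 at 0.46, MRPL2 at -0.42 and MRPL12 at -0.33, the last at 0.023 in Cy5 alone. Proteasome subunits had 2 higher and 6 lower of 41 (19.5%) with a median of -0.076 that was -0.017 without the 6 months dog 2 array, the lower ones led by the immunoproteasome subunits above and PSMD3 at -0.30, while the ubiquitin receptor PSMD4 lay at 0.79 in the ratio, 0.20 in Cy5 alone and -0.42 in Cy3 alone.

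The 12 named genes with the lowest p among those higher in 6 months were CDYL, DHX8, CLIC1, LIN9, SLPI, STAG3, MRPL47, MNT, LYPLA2, HSPBAP1, TAF12 and GADD45A, with differences from 0.37 for MNT to 1.31 for STAG3. CDYL, a chromodomain co-repressor, ranged from -0.41 to 0.063 in ctrl (median -0.22) and from -0.17 to 0.49 in 6 months (median 0.35), a difference of 0.49 ± 0.12. DHX8, a helicase that releases spliced RNA, ranged from -0.71 to 0.19 in ctrl and from 0.078 to 0.74 in 6 months, a difference of 0.55 ± 0.14. Both groups overlapped at their edges, and in Cy5 alone CDYL and DHX8 kept higher means at 0.26 and 0.36. STAG3, a cohesin subunit of meiosis, was highest in dogs 3 and 4, with a 6 months range of 0.28 to 2.79 and a median of 0.70. CLIC1, a chloride channel protein, had a difference of 0.47 in the ratio but of -0.22 in Cy5 alone and of -0.52 in Cy3 alone. LIN9, a member of the DREAM complex, had a difference of 0.55 at its brighter probe and of -0.13 at its dimmer one.

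The 12 with the lowest p among those lower were DNMBP, MTMR10, WBP11, VAMP1, PPP3CC, ITCH, CCDC109B, PPAP2A, COG7, JMJD7, NR1D1 and ZNF24, from -0.43 for WBP11 to -1.72 for MTMR10. MTMR10, a myotubularin-related protein, ranged from -1.15 to 1.39 in ctrl (median -0.67) and from -3.02 to -0.46 in 6 months (median -2.11). The ctrl arrays of dogs 4, 5 and 7 lay above 1 and the 5 others below 0, the difference was -1.72 ± 0.46, and the dimmer of its 2 probes gave -0.29. PPP3CC, a catalytic subunit of calcineurin, which carries T cell receptor signals to NFAT, had a difference of -0.67 ± 0.19, and ITCH, a ubiquitin ligase whose loss causes inflammatory skin disease in mice, of -0.49 ± 0.14 at its brighter probe and of -0.036 at its dimmer one. NR1D1, the clock repressor REV-ERBα, had a difference of -0.48 ± 0.14. WBP11, a splicing factor, had an exact permutation p of 0.000932 and a limma adjusted p of 0.589. It was named for its low p on these same arrays, so that exact p is not independent support. DNMBP, a scaffold of the actin skeleton, had a difference of -0.57 in the ratio but of -0.0084 in Cy5 alone.

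Of all probes, 3 had every 6 months array above every ctrl array (0.015%) and 12 had every one below (0.0602%). Among genes by their brightest probe, 0 lay wholly above and 4 wholly below (0.0496%). They are named here after their values were seen. Beside RFX5 they were CCL22, a chemokine that draws type 2 T cells, at -0.22 ± 0.11, MPST, a sulfurtransferase, at -0.34 ± 0.13 (0.50 at its dimmer probe), and ZFP64, a zinc finger factor, at -0.28 ± 0.14. CCL22 ranged from 0.017 to 0.46 in ctrl and from -0.26 to -0.0014 in 6 months, and its difference was -0.019 in Cy5 alone and 0.29 in Cy3 alone.

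**Figure D5:**
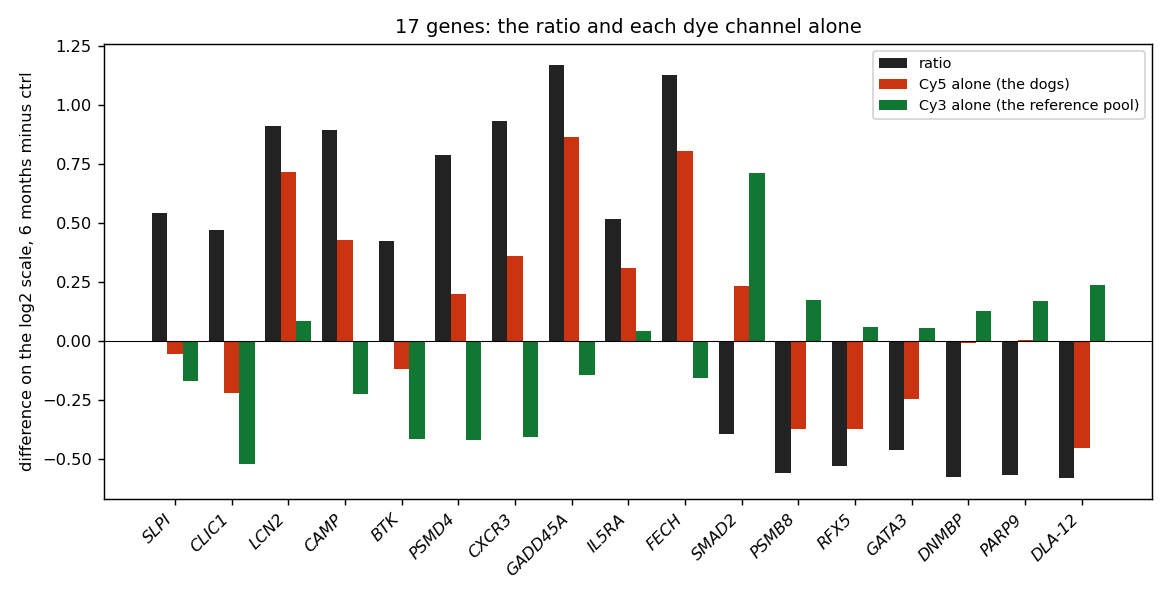
For 17 genes (x axis), bars give the difference between 6 months and ctrl arrays on the log2 scale (y axis) in the ratio (black), in Cy5 alone (red, the dogs) and in Cy3 alone (green, the common pool), both channels after normexp and quantile normalization. LCN2, GADD45A, FECH, PSMB8 and RFX5 keep their direction in Cy5, while SLPI, CLIC1, BTK and SMAD2 do not and PARP9 and DNMBP are near 0 there.

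Of 9 genes that the study chose for discussion 4 passed the filter, and since it chose them on these samples their direction here is not independent evidence. Besides SLPI and MMP9 these were RARRES2, the precursor of the chemoattractant chemerin, and CBD103, the canine beta-defensin with roles in skin defense and coat color. RARRES2 ranged from -0.34 to 0.99 in ctrl (median 0.27) and from -0.49 to 0.30 in 6 months (median 0.041), a difference of -0.31 ± 0.19. CBD103 ranged from -0.29 to 0.37 in ctrl (median -0.030) and from -0.51 to 0.89 in 6 months (median 0.26), a difference of 0.15 ± 0.21. These values are from the brighter probe of each gene, with exact permutation p of 0.130 and 0.474. The dimmer probes gave larger differences of the same sign. For RARRES2 the dimmer probe gave -0.53 ± 0.23. The dimmer CBD103 probe ranged from -0.96 to 0.53 in ctrl (median -0.45) and from -0.22 to 2.11 in 6 months (median 1.56), a difference of 1.41 ± 0.44. Both dimmer probes had an unadjusted p under 0.05 and a limma adjusted p of 0.589, so the reading of these genes depends on the probe. DPP10, PLSCR4, NTSR1, DEFB122 and IL36G were not well above background on every array and were not tested here.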

How the data were processed

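Blood RNA of 22 samples was hybridized to 2-color canine arrays, Cy5 for the dog and Cy3 for the common pool, without dye swap. The authors scanned them with Agilent Feature Extraction (10.10.1.1 in the file headers, 10.7.3.1 in the submitters' processing notes), and the deposited scanner files give, per spot, the log10 ratio of background-subtracted, dye-normalized signals, the intensity of each channel, and flags, which are other values. Here the log10 ratio was converted to log2, repeat spots of a probe were averaged, and 208 spots flagged by the scanner software as outliers were dropped.

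The members and gene lists were chosen with earlier results of these data known. Groups came from the sample labels. limma 3.58.1 in R 4.3.3 was fitted to all 22 arrays with 3 groups and no block, with Benjamini-Hochberg adjustment over 19944 probes. The script was tested on simulated data. Exact permutation tests (two-sided) used all 6435 regroupings of the 15 arrays. Single channels were corrected with normexp (offset 50) and quantile normalized. Of the tested probes 12344 had a symbol in the files, 168 were named through RefSeq, and 7432 had none. Named were the 12 genes of lowest p in each direction, the genes the study discussed, up to 4 members of lowest p per list, and cell type markers. Lists numbered 48, of which 24, picked with those earlier results known, are described. Alternatives were the fit of the 15 arrays alone and the loess, centering, filter, channel, slide, scan day, pairing, value table and left-out arrays given at the end. In the deposited value table, on the log10 scale, 14 columns equal the scanner ratios and the 8 ctrl columns differ, with r of 0.948 to 0.983 and medians of -0.0002 to 0.0067. The number of arrays limits the precision. The limma p-values rest on the spread between arrays within the 3 groups, and the atopic dogs enter it both before and after therapy. That spread also holds differences between slides and scan days. Some named members of the lists are not reported here.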

Additional observations from a re-analysis of the deposited data

Results flagged for a closer look

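Among the named genes and lists, an array stood apart from the rest of its group in 15 of 208 groups of 7 or 8 arrays, by the gap to its nearest neighbor divided by the range of the group. Chance alone gives such a gap in about 1 in 20 groups, here 10.4. In 6 of the 15 the array was dog 4 after therapy, in 5 as the lowest and in 1 as the highest. For this array the gap was 0.721 of the range for CD68 (value -1.03), 0.596 for GPR44 (-0.93), 0.711 for CXCR3 (-1.41), 0.611 for TBXA2R (-0.63), 0.816 for the mean of chemokines and their receptors (-0.59) and 0.634 for glucocorticoid genes (0.48). The ctrl dog 7 array was the highest for IFI35 with a gap of 0.595 (value 1.5), for interferon-stimulated genes with 0.759 (1.32) and for the IgE receptor, basophil and eosinophil list with 0.661 (0.36). The ctrl dog 5 array was the lowest for ZNF24 with a gap of 0.586 (-0.51) and the highest for SMAD2 with 0.627 (1.37) and for the IL-4, IL-13 and IL-31 list with 0.588 (0.34). The remaining gaps were 0.552 for DDIT4 in ctrl dog 1 (0.75), 0.576 for CD80 in 6 months dog 1 (0.40) and 0.639 for regulatory T cell genes in ctrl dog 2 (0.21).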

How the results depend on the processing

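No probe passed an adjusted p of 0.05 under any alternative for the ratio, and 338 did in Cy5 alone (121 higher, 217 lower). The probes with an unadjusted p under 0.05 numbered 1577 (754 higher, 823 lower). Fitting the 15 arrays of this comparison alone gave 2335 (1199 higher, 1136 lower). There were 856 after normexp and loess and 3885 in Cy5 alone. With Cy5 above background on at least 7 arrays there were 2757 of 38287, and without a filter 3419 of 43603. The count was 552 by the methods' test, 757 and 384 with slide or scan day as a random block, and 988 without the ctrl arrays of slide 1. With the 6 months arrays of slide 6 alone, chosen after seeing the data, there were 985. Leaving out each array in turn gave 911 to 3408. The 7634 probes that differed in the reference channel became 0 with median scaling. List medians that moved beyond the spread between dogs were immediate early genes at 0.0586 (loess), neutrophil granule proteins at 0.0279, S100 proteins at -0.133 and cytosolic ribosomal proteins at -0.186 (Cy5 alone), S100 proteins at -0.156 (without ctrl slide 1), regulatory T cell genes at -0.0902 and leukotriene genes at 0.0234 (without ctrl slide 2), and regulatory T cell genes at -0.115 (without the 6 months arrays of slide 6, chosen after seeing the data). Of 78 named genes, each followed at its brightest probe, 7 changed sign under the alternatives run, all in Cy5 alone: CLIC1 at -0.221, SLPI at -0.0567, PARP9 at 0.0028, BTK at -0.119, SMAD2 at 0.233, CARS2 at 0.0519 and MRPL12 at 0.023. The cause was not tested. CDYL, DHX8, STAG3, TAF12 and THEMIS passed the adjusted threshold in Cy5 alone.

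The ctrl and 6 months arrays share replicate numbers but not dogs, so the numbers pair no samples of this comparison. With the replicate block 0 probes were called and 1719 had an unadjusted p under 0.05 (1140 higher, 579 lower). After removal of each group's mean, 6 months and ctrl arrays with the same number correlated at -0.565 to 0.464 over 7 pairs. Of these, 4 were over 0.1, and 1 of the 6 months arrays correlated best with the ctrl array of its own number. Dim probes, 7 and 8 arrays a group and slides held by a single group limit what could be detected.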
